A study of Mus musculus with 24 samples.

Results

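Transcripts of the constitutive proteasome were examined in the livers of 24 female NMR-1 laboratory mice, 1 array per mouse, after 2 weeks on 1 of 4 diets. The genes were taken by name: every probe set with a single annotated symbol that starts with Psma, Psmb, Psmc, Psmd or Psmg and a digit, leaving out the 4 probe sets of Psmb8, Psmb9 and Psmb10. This gave 84 probe sets of 41 genes, out of 45037 probe sets on the array without controls. Of these, 64 probe sets of 39 genes passed a filter on low values (6 or more of the 24 arrays over 3.147, which is the median value of the whole table), among 25544 probe sets of 13385 genes in all. The probe set of highest mean stood for its gene in the tests.

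Mice were 8 weeks old at the start and all were of 1 strain and sex, with 6 mice per diet, and each of the 2 processing batches held 3 mice of every diet. Cafeteria mice ate cooked canteen meals, fast food mice ate restaurant fast food, chimpanzee-diet mice were given produce (fruit and vegetables) with yogurt, and pellet mice stayed on laboratory chow. The cafeteria and fast food mice were also pooled as the human diets (12 mice). Littermates were spread over the diets, but the labels do not tell which mice they were, so litter entered no test. Whole liver was measured, and in such bulk tissue fewer cells of a type and less RNA per cell cannot be told apart.

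The proteasome is the barrel-shaped protease that degrades proteins tagged with ubiquitin. Its core particle has outer rings of alpha subunits, which form the gate, and inner rings of beta subunits, of which those encoded by Psmb5, Psmb6 and Psmb7 hold the active sites. The regulatory particle sits on the core: its base contains a ring of ATPases (Psmc1 to Psmc6) that unfold substrates, and its lid removes the ubiquitin chain through the metalloprotease encoded by Psmd14. Dedicated chaperones (the Psmg genes, Psmd5, Psmd9 and Psmd10) assist the assembly of these parts. In immune and cytokine-stimulated cells the active subunits are exchanged for those encoded by Psmb8, Psmb9 and Psmb10, giving the immunoproteasome. Liver is a tissue of high protein turnover.

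All values here are log2 expression. The liver label was checked with markers: Alb, the gene for serum albumin, had a mean of 12.76 over all arrays. Of the hepatocyte genes measured, Ass1 was lowest (4.77) and the rest were at 9.63 or above in the probe sets fitted. The pancreas marker Cela1 was at 8.29. Correlations between pairs of arrays ran from 0.9255 to 0.9956, and no arrays were identical. The 90th percentile of an array, a measure of its signal range, averaged lower in batch 2 for every diet, and it was lowest in cafeteria batch 2 replicate 3 (5.66), chimpanzee batch 2 replicates 1 and 2 (5.80 and 5.87) and fast food batch 2 replicate 2 (5.85). These 4 arrays were also the 4 with the lowest median over the 39 proteasome genes (7.20 to 7.28), the next array being at 7.49. The 90th percentile averaged 6.21 ± 0.32 in chimpanzee mice and 6.31 ± 0.23 in pellet mice (SD, n = 6 each). Between batches, batch 2 minus batch 1 had a median of -0.35 over the 39 genes, against -0.12 over all genes tested, and 38 of the 39 genes were lower in batch 2.

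Levels of proteasome transcripts were lower in mice on the chimpanzee diet than in mice on the pellet diet. Of the 39 genes, 17 fell and 0 rose, at an adjusted p of 0.05 in a limma fit of diet and batch over all 24 mice, and 22 did not pass. In the same comparison 7.43% of all genes tested were called lower and 2.93% higher. Here and below, all genes tested were not matched to the 39 for level. Of the 39, 36 had means above 6, while the median of all genes tested averaged 4.29 in chimpanzee and 4.32 in pellet mice. The difference was negative in 37 of the 39 genes, with a median of -0.36 over them and of -0.004 over all genes. The median was closer to 0 when the range of the arrays was evened out. It was -0.24 after quantile normalisation, -0.26 after cyclic loess and -0.24 with the 90th percentile in the fit. The number of the 39 genes called lower was 19, 19 and 18 in these settings. Of all genes 7.52%, 8.06% and 8.1% were called lower there and 5.95%, 6.69% and 7.21% higher. Of the 6 chimpanzee arrays 2 were among the 4 of lowest range, and the beta-actin 3' minus 5' difference, a sign of RNA quality, was 1.08 in chimpanzee and 0.75 in pellet mice. With that difference in the fit 0 of the 39 genes were called. The genes that fell belonged to the core (Psma1, Psma4, Psma5, Psma7, Psmb2, Psmb4), to the base (Psmc1 to Psmc5, Psmd2, Psmd4), to the lid (Psmd11, Psmd14) and to the assembly chaperones (Psmg2, Psmd10).

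The size of these changes was modest. Psmd14, the deubiquitinating enzyme of the lid, fell most: its level (lowest, median and highest of 6 mice) was 5.69, 6.67 and 7.23 under the chimpanzee diet, against 7.20, 7.51 and 7.92 under the pellet diet. It was 6.24, 7.19 and 7.52 under the cafeteria diet and 6.60, 7.45 and 7.63 under the fast food diet. The chimpanzee mice of batch 2 were the low ones, at 5.69 to 6.36, and within each batch every chimpanzee mouse lay below every pellet mouse. The difference was -1.01 ± 0.17 (SE), or 2.01-fold lower (adjusted p = 0.000437). It was -0.63 in batch 1 and -1.38 in batch 2, with an unadjusted p of 0.0103 for diet by batch (adjusted p = 0.914).

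Psma1, a subunit of the alpha ring, was the single gene of the 39 in which all 6 chimpanzee mice lay below all 6 pellet mice, a pattern shown by 2.35% of all genes. Its levels were 6.46, 7.23 and 7.47 (lowest, median and highest) under the chimpanzee diet and 7.55, 7.91 and 8.17 under the pellet diet, and it was 1.69-fold lower (-0.76 ± 0.14, adjusted p = 0.000717). Under the cafeteria diet it was at 7.09, 7.62 and 7.80 and under the fast food diet at 6.83, 7.86 and 7.92. Psma5, another subunit of that ring, had 7.27, 7.99 and 8.29 in chimpanzee mice, against 8.11, 8.54 and 8.86 in pellet mice, 1.62-fold lower (-0.69 ± 0.15, adjusted p = 0.00263). The ranges of the diets overlapped for Psma5 through the chimpanzee mice of batch 1, whereas within each batch they did not. A total of 10 of the 39 genes had every chimpanzee mouse below every pellet mouse within each batch, as had 6.85% of all genes.

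**Figure D1:**
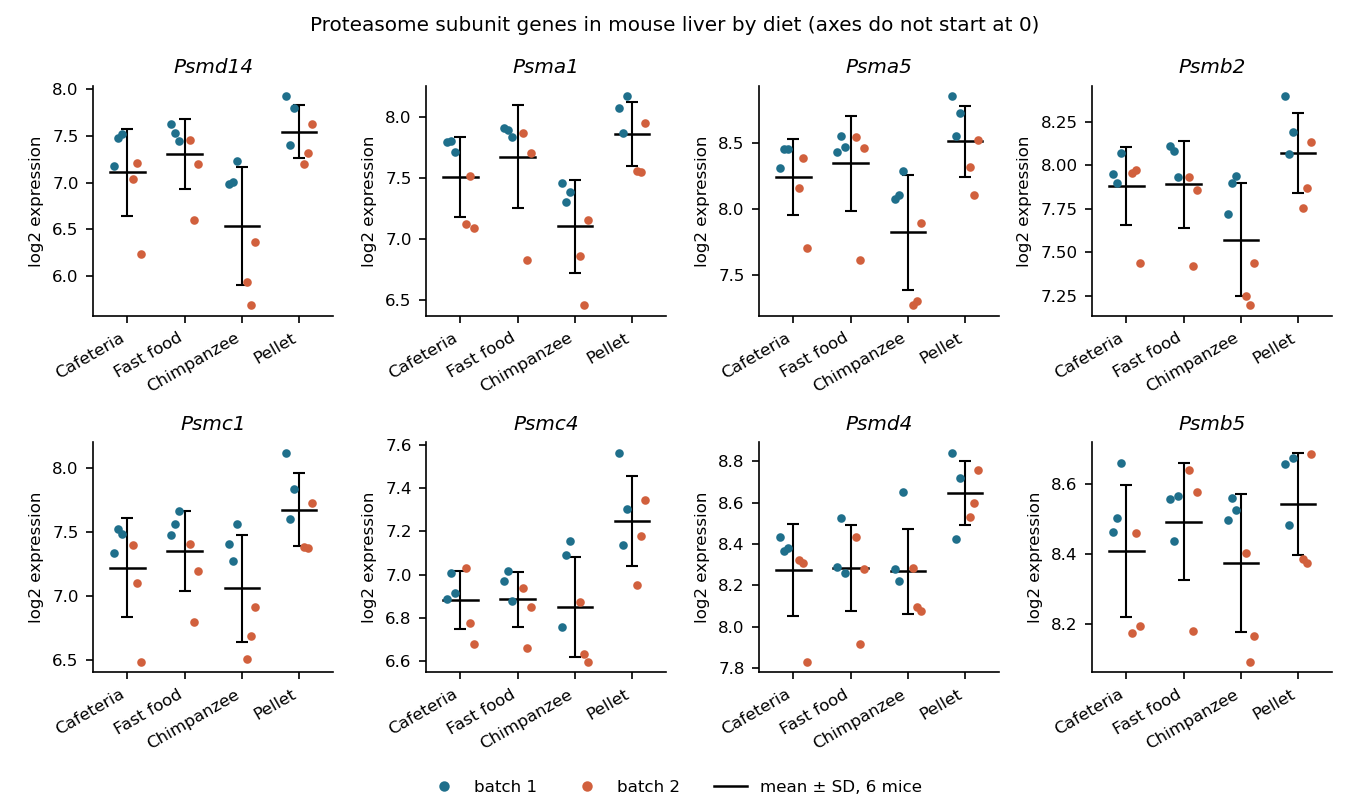
Log2 expression (y axes, not starting at 0) of 8 proteasome genes in the 6 mice of each diet (x axis), coloured by batch, with the mean and SD of 6 mice as black bars. In Psmd14 the chimpanzee mice range from 5.69 to 7.23 and the pellet mice from 7.20 to 7.92, and the chimpanzee mice of batch 2 lie between 5.69 and 6.36. Psmb5, which was not called, is shown beside the genes that fell.

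The promoters of the 3 genes that fell most are shown here, with that of Psmb5, an active-site gene that was not called, because proteasome genes are known to be driven together by Nfe2l1 and Nfe2l2 through antioxidant response elements and by NF-Y through CCAAT boxes. The sequences are RefSeq windows of build GRCm38.p6, from 250 bases before to 50 bases after the transcript start, on the strand of the gene. Capitals mark matches, on either strand, to TGACNNNGC or TGAGNNNGC (the core of the antioxidant response element) or to CCAAT. Where CCAAT matches on opposite strands overlap, as near the end of the Psmd14 window, they form 1 run of capitals.
Psmd14 (chr2:61711444-61711743, + strand): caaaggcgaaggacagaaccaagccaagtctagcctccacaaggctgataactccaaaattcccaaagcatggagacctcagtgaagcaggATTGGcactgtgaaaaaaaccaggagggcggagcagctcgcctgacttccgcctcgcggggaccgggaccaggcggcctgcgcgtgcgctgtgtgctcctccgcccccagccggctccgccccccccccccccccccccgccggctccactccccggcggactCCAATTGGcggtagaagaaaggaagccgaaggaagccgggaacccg
Psma1 (chr7:114276067-114276366, - strand): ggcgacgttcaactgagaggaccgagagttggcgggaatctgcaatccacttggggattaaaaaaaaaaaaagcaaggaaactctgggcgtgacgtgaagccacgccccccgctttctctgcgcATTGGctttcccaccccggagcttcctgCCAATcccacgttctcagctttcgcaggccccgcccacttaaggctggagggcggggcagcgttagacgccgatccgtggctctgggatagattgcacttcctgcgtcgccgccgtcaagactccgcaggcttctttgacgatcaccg
Psma5 (chr3:108256676-108256975, + strand): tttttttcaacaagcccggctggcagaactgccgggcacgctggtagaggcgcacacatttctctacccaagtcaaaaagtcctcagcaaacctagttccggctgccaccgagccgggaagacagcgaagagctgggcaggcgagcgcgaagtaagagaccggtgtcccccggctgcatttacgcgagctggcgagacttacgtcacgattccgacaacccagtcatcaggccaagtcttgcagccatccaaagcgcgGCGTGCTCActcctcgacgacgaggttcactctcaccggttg
Psmb5 (chr14:54617946-54618245, - strand): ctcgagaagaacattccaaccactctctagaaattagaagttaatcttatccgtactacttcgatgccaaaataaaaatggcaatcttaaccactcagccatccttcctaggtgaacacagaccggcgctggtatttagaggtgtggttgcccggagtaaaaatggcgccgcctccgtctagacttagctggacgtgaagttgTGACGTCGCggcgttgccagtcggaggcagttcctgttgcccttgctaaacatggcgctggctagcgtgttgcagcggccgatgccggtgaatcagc
The windows of Psmd14 and Psma1 held CCAAT boxes (3 and 2 matches) and no match to the antioxidant response element core. Psma5 and Psmb5 each held 1 match to that core and no CCAAT box.

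Over the family, 33 of the 41 genes had a window in the table. The antioxidant response element core was present in 16 of the 33 (48.5%), against 30.8% of 27025 genes with a window. It was found in 4 of 14 genes that fell in chimpanzee against pellet mice and in 12 of 18 that were tested and not called. CCAAT was present in 13 of the 33 genes (39.4%), against 41.1% of all genes, and in 7 of the 14 that fell and 5 of the 18 that were not called. These are counts of letters in a window around the start, and binding was not measured.

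In the alpha ring of the core, 4 of 7 genes fell under the chimpanzee diet relative to the pellet diet, and the 7 differences ran from -0.76 to -0.23. Psma7 was at 8.13 ± 0.52 in chimpanzee mice and 8.66 ± 0.35 in pellet mice (SD, n = 6 each), and Psma4 at 8.62 ± 0.40 and 9.03 ± 0.26. A second probe set of Psma7, of similar level, was not called (-0.26 ± 0.10, adjusted p = 0.139 over all probe sets). The others of the ring had smaller or more variable differences: Psma2 -0.38 ± 0.14 (adjusted p = 0.0782), Psma3 -0.29 ± 0.11 (adjusted p = 0.106) and Psma6 -0.23 ± 0.10 (adjusted p = 0.184). For Psma6 the highest-mean probe set was of a type (x_at) whose probes can bind other transcripts, and its other tested probe set gave -0.10 ± 0.09.

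None of the 3 active-site genes passed the test in any contrast between diets as fitted here. Psmb5, which encodes the chymotrypsin-like site, was at 8.09, 8.45 and 8.56 (lowest, median and highest) in chimpanzee mice and at 8.37, 8.57 and 8.69 in pellet mice. These ranges overlapped between 8.37 and 8.56, with a difference of -0.17 ± 0.09 (adjusted p = 0.278). Psmb6, of the caspase-like site, differed by -0.28 ± 0.10 (adjusted p = 0.0744), and Psmb7, of the trypsin-like site, by -0.20 ± 0.10 (adjusted p = 0.203). Psmb6 was called lower with array weights (-0.24, adjusted p = 0.0392) and without fast food batch 2 replicate 2 (adjusted p = 0.0377). With array weights Psmb6 and Psmb7 were also called higher in human-diet than in chimpanzee mice (0.29 and 0.25, adjusted p = 0.0177 and 0.0283), as was Psmb6 without that fast food mouse (0.31, adjusted p = 0.036). Whether the active-site genes differ from the rest of the family in their response was not tested.

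Of the other beta subunits, Psmb2 and Psmb4 fell. Psmb2 was at 7.20, 7.58 and 7.94 in chimpanzee mice and at 7.75, 8.10 and 8.39 in pellet mice, 1.41-fold lower (-0.50 ± 0.11, adjusted p = 0.00339). The low values were again in batch 2, where all chimpanzee mice were under 7.44 and all pellet mice at or above 7.75. Psmb4 fell by 0.33 (SE 0.10, adjusted p = 0.0336), while Psmb3 was at -0.25 ± 0.11 and Psmb1 at -0.14 ± 0.09. A second probe set of Psmb3 was called (-0.46 ± 0.13, adjusted p = 0.0295 over all probe sets).

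In the base of the regulatory particle, 5 of the 6 ATPase genes fell, with differences of -0.62 to -0.30 over the ring. Psmc1 was at 6.51, 7.10 and 7.57 under the chimpanzee diet and at 7.38, 7.66 and 8.12 under the pellet diet, 1.53-fold lower (-0.62 ± 0.13, adjusted p = 0.00344). Its ranges overlapped over all mice, yet not within either batch. Psmc2 was 1.52-fold lower (-0.60 ± 0.14, adjusted p = 0.00793), and its second measured probe set fell too (-0.43 ± 0.10). Psmc4 (-0.40 ± 0.09), Psmc5 (-0.46 ± 0.12) and Psmc3 (-0.39 ± 0.11) made up the rest of those called. Psmc6 was not called through its highest-mean probe set (-0.30 ± 0.12, adjusted p = 0.129), though another probe set of it was (-0.78 ± 0.23, adjusted p = 0.0324 over all probe sets).

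The non-ATPase subunits of the base, Psmd1 and Psmd2, which form its scaffold, and Psmd4, a receptor for ubiquitin, differed by -0.42 ± 0.14, -0.38 ± 0.11 and -0.38 ± 0.10. Psmd2 and Psmd4 passed and Psmd1 did not (adjusted p = 0.0567). Psmd4 was at 8.08, 8.25 and 8.65 in chimpanzee mice and at 8.43, 8.66 and 8.84 in pellet mice, so that 1 chimpanzee mouse, of batch 1, reached the pellet range. Its 3 measured probe sets did not run the same way: one more fell by 0.54 (SE 0.11, adjusted p = 0.00278 over all probe sets), while another, near the low end of the array at a level of about 4, was at 0.21 ± 0.08 (unadjusted p = 0.0104, adjusted p = 0.0901).

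In the lid, Psmd14 and Psmd11 fell and the other 6 genes did not pass, with differences between -0.36 and -0.24. Psmd11, a scaffold of the lid, was at 8.31, 8.71 and 8.93 in chimpanzee mice, against 8.80, 9.22 and 9.46 in pellet mice, 1.41-fold lower (-0.50 ± 0.12, adjusted p = 0.01). It was measured by more probe sets than any other gene, 8 in all, of which 6 passed the filter. Of these 6, 3 fell (-0.72, -0.50 and -0.40) and the others were at -0.02, 0.13 and 0.18, so that probe sets annotated to this gene differed in direction. Psmd7 likewise had a probe set at -0.33 ± 0.13 (unadjusted p = 0.018) and one at 0.19 ± 0.09 (unadjusted p = 0.0383), neither of which passed the adjustment. A second probe set of Psmd6 was called (-0.56 ± 0.18, adjusted p = 0.0494 over all probe sets).

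Among the assembly chaperones 2 of 7 fell. Psmg2, which works with Psmg1 to build the alpha ring, was at 5.14, 5.90 and 6.29 under the chimpanzee diet and at 5.82, 6.25 and 6.85 under the pellet diet, 1.41-fold lower (-0.50 ± 0.14, adjusted p = 0.0219). A second probe set of Psmg2 was not called (-0.32 ± 0.15, adjusted p = 0.209 over all probe sets). The partner Psmg1 was at -0.31 ± 0.14 (adjusted p = 0.174). Psmd10, also known as gankyrin, fell by 0.44 (SE 0.11, adjusted p = 0.0112), at levels close to the filter (3.85 ± 0.36 in chimpanzee and 4.29 ± 0.41 in pellet mice). Psmg3 (-0.03 ± 0.10) and Psmd9 (0.12 ± 0.11), 1 of the 2 genes with a positive difference, stood at the other end. The second was Psmc3ip (0.10 ± 0.14), which the naming rule takes in although it encodes a partner of the Psmc3 protein in meiotic recombination and not a subunit.

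**Figure D2:**
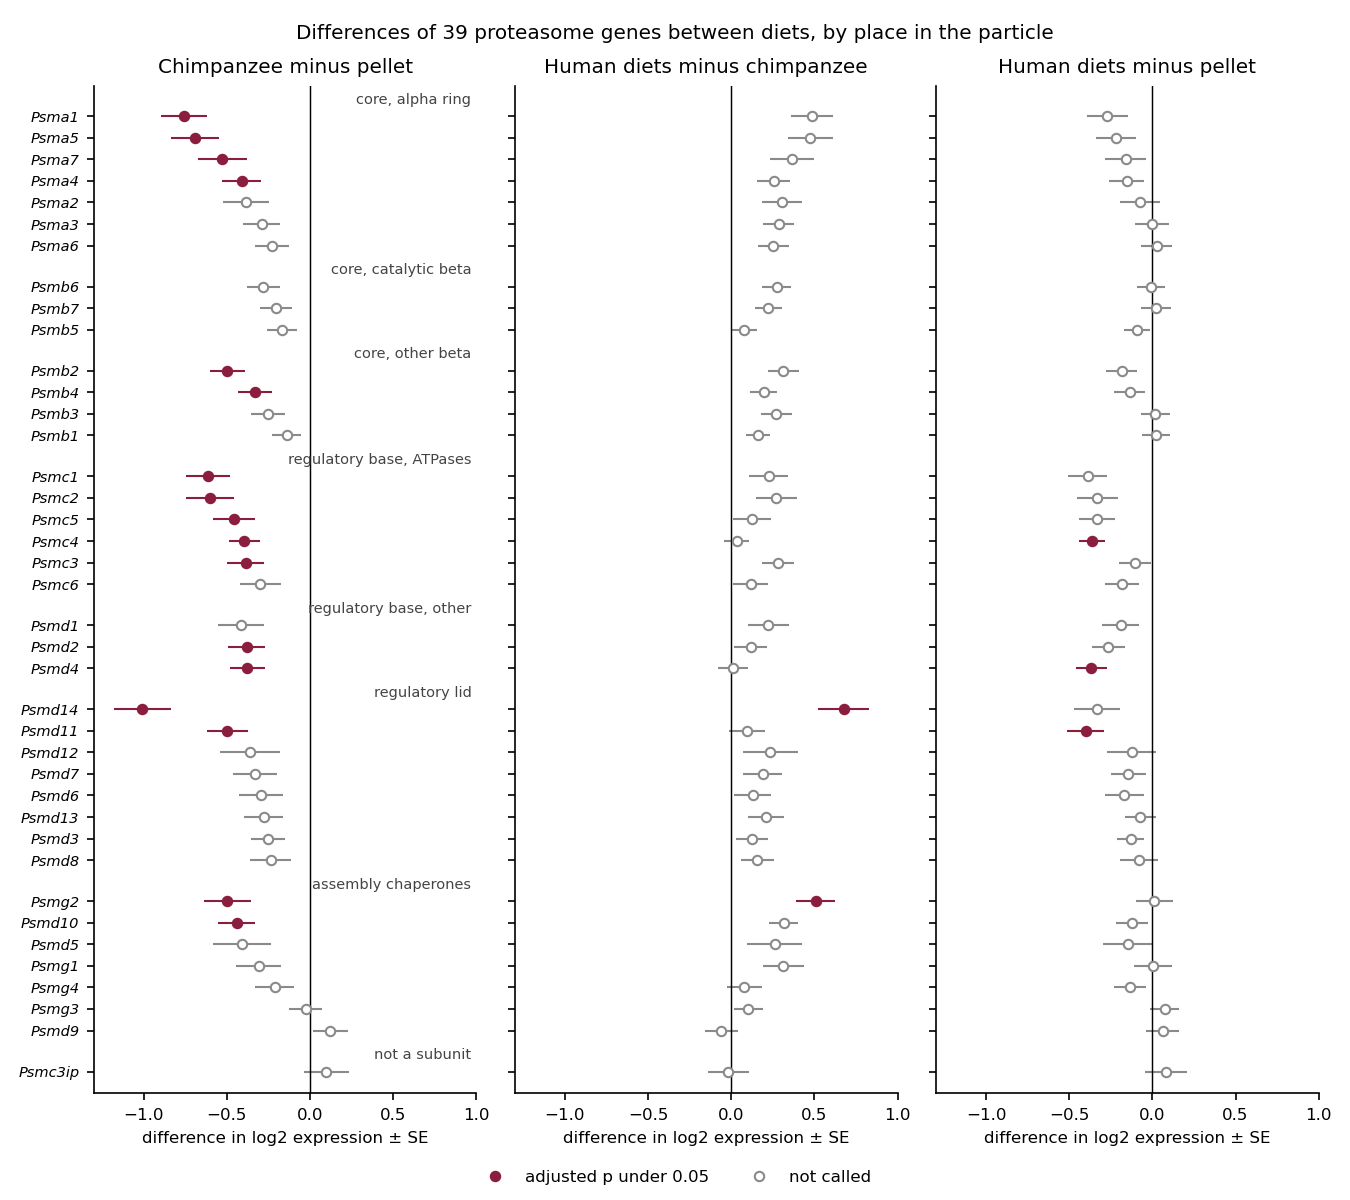
Difference in log2 expression ± SE (x axes) for the 39 proteasome genes (rows), grouped by place in the particle, in 3 comparisons of diets. Filled points passed an adjusted p of 0.05: 17 genes lower in chimpanzee against pellet mice, 2 higher in human-diet against chimpanzee mice and 3 lower in human-diet against pellet mice.

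The pattern did not rest on the choice of 1 probe set per gene. Of all 64 member probe sets, 53 were lower and 11 higher in chimpanzee than in pellet mice, with 27 called lower and 0 called higher, in 20 genes. Over all 25544 probe sets 6.14% were called lower and 2.56% higher. Of these genes 17 were those called above, and the other 3 were Psmb3, Psmc6 and Psmd6. The 20 probe sets that the filter removed, of 16 genes, had means of 2.27 to 3.03 and carry no information on the diets. They included the only probe sets of Psma8, which replaces an alpha subunit in testis, and of Psmb11, the catalytic subunit of thymus epithelium. Further probe sets of Psma1 (3), Psma6 (2) and Psmd11 (2), and 1 each of Psma5, Psmb1, Psmc1, Psmc2, Psmc3ip, Psmc6, Psmd2, Psmd9, Psmg2, Psmg3 and Psmg4, made up the rest.

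Each batch was then examined alone. The median difference between chimpanzee and pellet mice over the 39 genes was -0.23 in batch 1 and -0.48 in batch 2 (3 mice per diet in each), and 35 of the 39 genes had the more negative difference in batch 2. All 17 genes called were lower in both batches, while of the 39 genes 36 were lower in batch 1 and 37 in batch 2. The 17 were called on both batches together, so their agreement in sign is not a separate check. A term for diet by batch reached an unadjusted p of 0.05 in 3 of the 39 genes (Psmd14, Psmd12 and Psmg1), against 5.16% of all genes, and in 0 after adjustment. Fitted within batch 1 alone, 5 genes were called, with 5.22% of all genes called lower. Within batch 2 alone it was 0, with 0.12% of all genes called lower. Without the 4 arrays of lowest range, 2 of which are chimpanzee arrays of batch 2, 12 genes were called, with 6.02% of all genes called lower, and the median difference was -0.23. Leaving out 1 mouse at a time gave 10 to 21 calls: the count was 10 without chimpanzee batch 2 replicate 2, without pellet batch 1 replicate 1 and without pellet batch 2 replicate 3. Of the 17 genes, 8 lost their call in at least 1 of these fits (Psma4, Psma7, Psmb4, Psmc3, Psmc5, Psmd2, Psmd4 and Psmg2), with adjusted p-values up to 0.105.

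**Figure D3:**
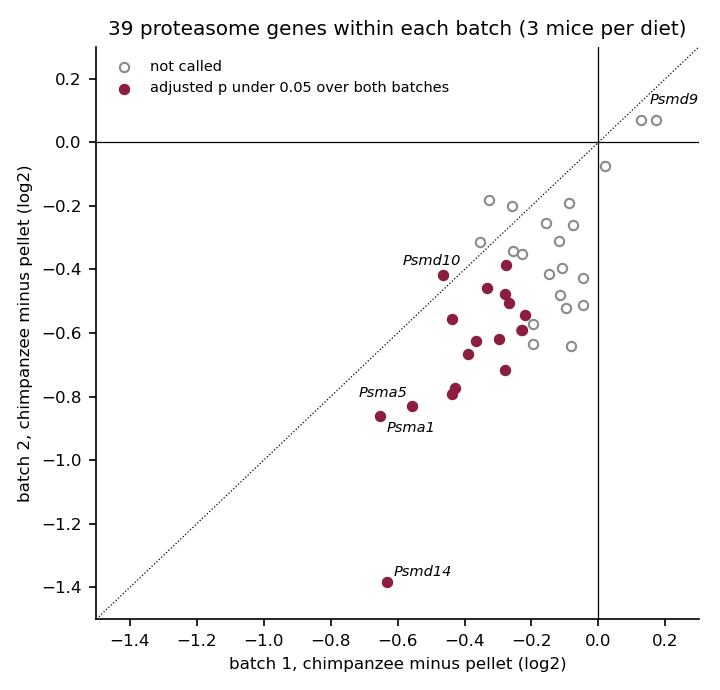
Chimpanzee minus pellet difference of the 39 proteasome genes in batch 1 (x axis, log2) and batch 2 (y axis, log2), each from 3 mice per diet. Filled points are the 17 genes called over both batches, all of which lie below 0 on both axes, and 35 of the 39 genes fall below the dotted line of equal differences.

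Control probe sets at the ends of the beta-actin transcript were set beside these genes, since the excess of the 3' over the 5' end grows as RNA is degraded. The 3' minus 5' difference was 1.08 ± 0.15 in chimpanzee mice and 0.75 ± 0.14 in pellet mice (SD, n = 6 each), higher by 0.33 (exact permutation test within batches, p = 0.005, the smallest that 400 permutations allow, adjusted p = 0.01 over 4 comparisons). It was 0.25 higher in batch 1 and 0.41 higher in batch 2 (exact permutation p = 0.1 in each, the smallest that 20 permutations allow). In the human diets it was 0.85 ± 0.11 (n = 12), lower than in chimpanzee mice by 0.23 (exact permutation p = 0.000992, adjusted p = 0.00397), with -0.13 in batch 1 (p = 0.131) and -0.32 in batch 2 (p = 0.0119). Human diets and pellet differed by 0.10 (exact permutation p = 0.12, adjusted p = 0.12). Cafeteria and fast food differed by 0.11 (0.91 ± 0.05 and 0.80 ± 0.13, n = 6 each, exact permutation p = 0.1, adjusted p = 0.12). Neither passed 0.05 with all mice. Without pellet batch 2 replicate 1 the exact permutation p of human diets against pellet was 0.0242. Without fast food batch 1 replicate 3 that of cafeteria against fast food was 0.015.

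Beta-actin itself was lower in chimpanzee than in pellet mice at both ends, with 10.83 ± 0.18 and 11.26 ± 0.17 for the 3' probe set and 9.75 ± 0.27 and 10.50 ± 0.30 for the 5' probe set. When the 3' minus 5' difference of each array was added to the fit, 0 of the 39 proteasome genes were called in chimpanzee against pellet mice, with a median of -0.15, and 211 of all 13385 genes were called, in place of 1387. In that fit Psmd14 was at -0.60 ± 0.23 (adjusted p = 0.266), Psma1 at -0.48 ± 0.19 (adjusted p = 0.29), and Psmb7 at 0.003 ± 0.13. This covariate itself differed between the diets, so that its part and that of the diet cannot be told apart here.

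**Figure D4:**
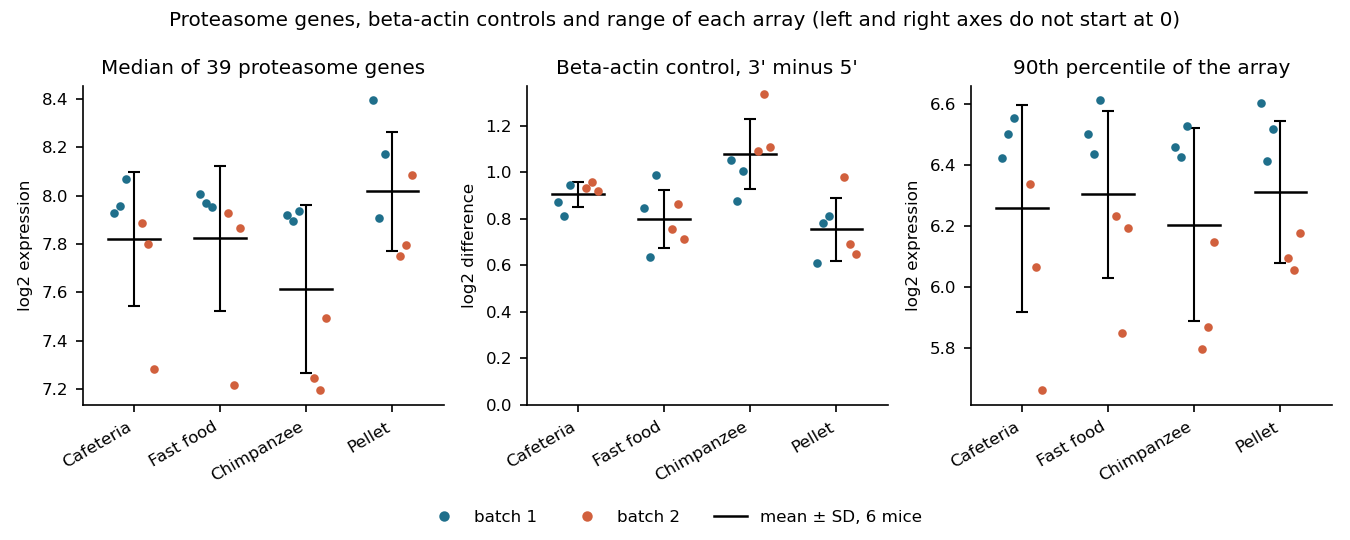
Per array and by diet (x axes), coloured by batch: the median log2 expression of the 39 proteasome genes (left), the 3' minus 5' difference of the beta-actin control probe sets (middle, log2) and the 90th percentile of all values (right, log2), with the mean and SD of 6 mice as black bars; the left and right axes do not start at 0. The 3 chimpanzee mice of batch 2 have proteasome medians of 7.20 to 7.49, and the beta-actin difference of chimpanzee mice averages 1.08 against 0.75 in pellet mice.

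Markers of other liver cells were also measured. Of 12 genes of Kupffer cells and macrophages, all tested, 5 fell in chimpanzee relative to pellet mice (Cd68, Csf1r, Clec4f, C1qb and Vsig4, by 0.68 to 1.16). The median difference was -0.68, against -0.004 over all genes tested. For this list and those below, the shares of all genes tested were 7.43% called lower and 2.93% higher. Marco went the other way (0.37, not called), at 4.04 in chimpanzee and 3.67 in pellet mice. The mean of the list ranged from 4.85 to 6.15 in chimpanzee mice and from 5.77 to 6.61 in pellet mice. The lowest mean levels of the list in chimpanzee mice were those of Timd4 (3.07, under the filter value of 3.147) and Cd68 (3.52). Of the 7 hepatocyte genes measured 1 rose (Hnf4a) and 0 fell, and the list ranged from 10.33 to 10.70 in chimpanzee and from 10.41 to 10.74 in pellet mice. The part of these cells in the proteasome result was not tested. Of the other lists, endothelial genes had 1 of 6 lower, and 0 were called among 6 stellate, 3 cholangiocyte, 3 lymphocyte, 2 neutrophil, 1 erythroid and 1 pancreas gene.

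Next, the human diets were compared with the chimpanzee diet, the comparison for which the study was made. Here 2 of the 39 genes rose under the human diets and 0 fell, while 1.15% of all genes were called higher and 0.344% lower. Psmd14 was at 7.21 ± 0.42 (SD, n = 12) under the human diets and 6.54 ± 0.63 (n = 6) under the chimpanzee diet, 1.60-fold higher (0.68 ± 0.16, adjusted p = 0.0367). Psmg2 was at 6.28 ± 0.34 and 5.77 ± 0.53, 1.42-fold higher (0.51 ± 0.12, adjusted p = 0.0379), with 5.88 to 6.88 in cafeteria, 5.71 to 6.64 in fast food and 5.14 to 6.29 in chimpanzee mice. The ranges overlapped for both genes. A second probe set of Psmg2 was not called (0.26 ± 0.12, adjusted p = 0.347 over all probe sets). For Psmd11 the probe sets differed in direction here, with 1 at 0.30 (unadjusted p = 0.036) and another at -0.21 (unadjusted p = 0.0218), neither called.

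The difference between human diets and chimpanzee was positive in 37 of the 39 genes, with a median of 0.22 (0.13 after quantile normalisation and 0.12 after cyclic loess), against 0.004 over all genes, and 19 genes reached an unadjusted p of 0.05, against 14.3% of all genes. Next in order were Psma1 (0.49 ± 0.13, adjusted p = 0.0598), Psmd10 (0.32 ± 0.09, adjusted p = 0.0746) and Psma5 (0.48 ± 0.13, adjusted p = 0.0822). Psmd9 (-0.06) and Psmc3ip (-0.02) were the genes below 0. The active-site genes Psmb6, Psmb7 and Psmb5 were at 0.27, 0.22 and 0.08, none of them called, and the ubiquitin receptor Psmd4 at 0.01 ± 0.09. The median was 0.10 in batch 1 and 0.35 in batch 2. The 12 Kupffer cell and macrophage genes had a median difference of 0.29 here, with 0 called, and their part was not tested.

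The calls of Psmd14 and Psmg2 were close to the threshold. Both were lost in batch 1 alone (differences of 0.39 and 0.31), where Psma1 was called in their place (0.44, adjusted p = 0.0298), in batch 2 alone (0.96 and 0.71) and with the beta-actin difference in the fit (0.37 and 0.23). The count was 0 without any one of chimpanzee batch 1 replicates 1 and 2, chimpanzee batch 2 replicates 1 and 2, fast food batch 1 replicates 1 and 2, fast food batch 2 replicate 3, cafeteria batch 1 replicate 2 and cafeteria batch 2 replicate 2. It was 1 without chimpanzee batch 1 replicate 3 or fast food batch 2 replicate 1, and 7 without either of 2 human-diet arrays of low range (fast food batch 2 replicate 2 and cafeteria batch 2 replicate 3).

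Human diets and pellet were compared in the same way, which shares the human-diet mice with the comparison above. Of the 39 genes 3 fell under the human diets and 0 rose, with 2.82% of all genes called lower and 2.15% higher. Psmc4 was at 6.88 ± 0.13 (SD, n = 12) under the human diets and 7.25 ± 0.21 (n = 6) under the pellet diet (-0.36 ± 0.08, 1.29-fold lower, adjusted p = 0.00588). It was between 6.68 and 7.03 in cafeteria, 6.66 and 7.02 in fast food and 6.95 and 7.56 in pellet mice, so that the groups overlapped at their edges. Psmd4 was at 8.28 ± 0.21 and 8.65 ± 0.16 (-0.37 ± 0.09, adjusted p = 0.0203) and Psmd11 at 8.76 ± 0.30 and 9.16 ± 0.26 (-0.40 ± 0.11, adjusted p = 0.0462).

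For the probe sets fitted, human diets minus chimpanzee was 0.03 for Psmc4 and 0.01 for Psmd4. The second probe set of Psmc4 was at 0.23 ± 0.11 against chimpanzee (unadjusted p = 0.0526) and at -0.26 ± 0.11 against pellet. For Psmd4, another probe set was at 0.03 against chimpanzee and -0.51 against pellet, and the remaining one, of low level, at -0.19 and 0.02. The call of Psmd11 was close to the threshold: it was lost in 18 of 32 settings, among them 13 of the 18 in which 1 mouse was left out, where it was between -0.44 and -0.33 (adjusted p from 0.051 to 0.15). Those 13 were all pellet mice but batch 2 replicate 2, all cafeteria mice but batch 2 replicate 1, and fast food batch 1 replicates 1 and 2 and batch 2 replicate 3. Psmd4 lost its call without any one of pellet batch 1 replicates 1 and 3 and pellet batch 2 replicates 2 and 3 (-0.37 to -0.33). The median of the 39 genes was -0.14 for human diets minus pellet, with 30 genes negative and 9 positive, and that of the 12 macrophage genes was -0.33, with 0 called. The median of the 39 genes was -0.07 with array weights and -0.06 without the 4 arrays of lowest range. Positive differences were small, the highest being 0.08, for Psmc3ip, Psmg3 (0.08) and Psmd9 (0.06). The count of calls was 1 without any one of pellet batch 1 replicate 1, pellet batch 1 replicate 3 and pellet batch 2 replicate 3, and 5 without cafeteria batch 2 replicate 1. It was 0 in either batch alone and 1, Psmc4, with the beta-actin difference in the fit (-0.29, adjusted p = 0.0319).

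The cafeteria and fast food diets were not told apart by these genes. None of the 39 was called in either direction, as against 0.00747% of all genes higher and 0% lower, and 0 of the 39 reached an unadjusted p of 0.05 in limma. The study's own kind of test, an unmoderated two-way model with an unadjusted p of 0.01, called 0 of the 39 and 1.78% of all genes. Differences ran from -0.26 (Psmd5, SE 0.18) to 0.16 (Psmd13, SE 0.12), with a median of -0.04. Psmd9 was at 0.15 ± 0.11, Psmc5 at 0.10 ± 0.12, Psma1 at -0.17 ± 0.14 and Psmd14 at -0.20 ± 0.17. In a test of all 4 diets together 11 of the 39 genes were called, against 9% of all genes, and all 11 were among the 17 that were lower in chimpanzee than in pellet mice: Psmd14, Psma1, Psma5, Psmc4, Psmc1, Psmb2, Psmg2, Psmd11, Psmd4, Psmd10 and Psmc2.

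Deviations of the genes from their group means were compared across mice. After the means of diet and batch were taken out, the median correlation between pairs of the 39 genes was 0.66 over the 24 arrays, and 681 of 741 pairs were above 0. Over all genes tested, which were mostly of lower level and not matched to the 39, the median was 0.01, with 50.9% of pairs above 0. How far level and array range account for this gap was not tested. When the 90th percentile of each array was taken out too, the median over the 39 genes was 0.42, with 634 of 741 pairs above 0. Psmc3ip (mean correlation with the other members -0.36), the gene that is not a subunit, and Psmd3 (-0.04), a lid subunit, did not follow the others, while the ATPase genes Psmc2 (0.74) and Psmc6 (0.72) and the lid enzyme Psmd14 (0.72) followed them most.

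Finally, 43 other genes of the pathway were listed, of which 30 were measured. In chimpanzee against pellet mice 5 of the 30 fell and 2 rose, with a median of -0.15. Over all genes tested 7.43% were called lower and 2.93% higher, with a median of -0.004. The differences furthest from 0 were those of immunoproteasome subunits Psmb9 and Psmb8: Psmb9 fell by 1.22 (SE 0.19, adjusted p = 0.000161; 5.63 in chimpanzee and 6.84 in pellet mice) and Psmb8 by 0.75 (SE 0.17, adjusted p = 0.00557). Their counterpart Psmb10 was at -0.32 ± 0.13 (adjusted p = 0.117). Psme1, a subunit of the activator that binds the same cores, fell by 0.47 (SE 0.13, adjusted p = 0.0224), and Pomp, the chaperone that matures the core, by 0.34 (SE 0.09, adjusted p = 0.0106). Psmb9 and Psmb8 are abundant in macrophages as in other immune cells. The macrophage markers called lower above fell with them, while Marco did not. The part of macrophages in these differences was not tested.

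A pair of transcription factors known to drive the family moved in opposite directions. Nfe2l1, which raises the subunit genes when proteasome activity falls short, rose by 0.52 (SE 0.15, adjusted p = 0.0229) under the chimpanzee diet relative to the pellet diet, with means of 6.38 and 5.86. Nfe2l2, known for the response to oxidative stress, fell by 0.56 (SE 0.17, adjusted p = 0.0365), with means of 6.65 and 7.21. Ubqln4, a shuttle for ubiquitinated proteins, rose by 0.43 (SE 0.14, adjusted p = 0.0439), while the proteasome-associated genes Txnl1 (-0.39 ± 0.15) and Vcp (-0.26 ± 0.11) did not pass.

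Under the human diets relative to the chimpanzee diet, Psmb9 rose by 0.78 (SE 0.19, adjusted p = 0.0486) and Psmb10 by 0.51 (SE 0.12, adjusted p = 0.0394), and 28 of the 30 genes did not pass, the nearest being Pomp (0.27 ± 0.08, adjusted p = 0.0944), Ubqln4 (-0.38 ± 0.13) and Psme1 (0.35 ± 0.12). Over all genes tested 1.15% were called higher and 0.344% lower in that comparison. None of the 30 passed in human diets against pellet, where Nfe2l1 was at 0.42 ± 0.13 (adjusted p = 0.0884), Ubqln1 at -0.33 ± 0.12 and Psmb8 at -0.35 ± 0.15, or in cafeteria against fast food, where Nfyb was at -0.37 ± 0.14, Mafk at 0.24 ± 0.09 and Psmb9 at -0.43 ± 0.19. The shares of all genes were 2.82% lower and 2.15% higher in the first of these, and 0% and 0.00747% in the second.

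**Figure D5:**
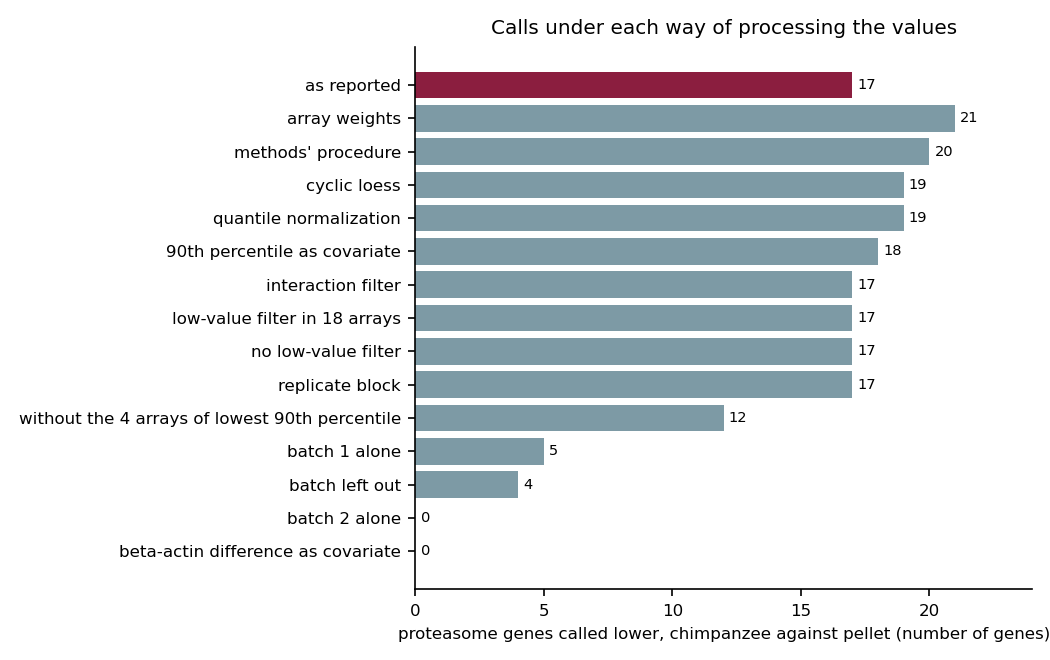
Number of the 39 proteasome genes called lower in chimpanzee than in pellet mice (x axis, from 0) under each way of processing the values (rows). The count is 17 as reported, 17 to 21 under 9 other settings, 12 without the 4 arrays of lowest range, 5 and 0 in batch 1 and batch 2 alone, 4 with batch left out and 0 with the beta-actin difference in the fit.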

How the data were processed

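Liver RNA of each mouse was hybridised to 1 Affymetrix mouse genome array. The authors deposited log2 expression values per probe set, made with rma, which per the methods includes quantile normalisation, although the 90th percentile of the arrays still ranged between 5.66 and 6.61; the base was taken from rma's convention and the range of values (1.9 to 13.01), and the version was not given in the sources used here. Whether other tissues or batches were normalised together is not stated. Diets came from the sample titles, and members and gene lists were chosen with earlier results of these data known.

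Genes were fitted with limma 3.58.1 in R 4.3.3 (lmFit, eBayes), with diet and batch as terms and Benjamini-Hochberg adjustment over 13385 genes. Human diets were tested against chimpanzee and pellet on 18 mice each, the other contrasts and the test of all 4 diets on 24 mice. Beta-actin differences were tested by exact two-sided permutation within batches. Mice were separate animals, with littermates among the diets, and the number of arrays limits the precision. Of the 45037 probe sets, 34945 had 1 symbol, 932 several and 9160 none; only those with 1 were named.

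Genes named are all members that passed in any test, the 3 of smallest p per direction and contrast, the active-site genes, Psmd14, Psmd4, genes whose probe sets disagree, and, of other pathway genes, those that passed and 3 more per contrast. The remaining members were given values after these were seen, to account for the family. Alternatives covered the filter, normalisation, array weights, covariates, batches, the methods' procedure and leaving out single mice. The fit was tested on simulated data in which noise was drawn separately for each gene. That cannot show how the fit behaves when whole arrays shift together.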

Additional observations from a re-analysis of the deposited data

Results flagged for a closer look

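In 25 named genes and the beta-actin 3' minus 5' difference, 104 groups of 6 mice were examined for a mouse that stood apart from the other 5 of its diet (Dixon's ratio), and 17 were found. The cutoff lets through about 1 in 20 groups by chance when groups are independent. These groups share the same 24 mice and hold genes that vary together, so that rate cannot be set against the 17. Of the 17, 11 were low values of fast food batch 2 replicate 2 and 5 were low values of cafeteria batch 2 replicate 3, both among the 4 arrays of lowest range.

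In fast food batch 2 replicate 2, the alpha ring genes Psma1 and Psma5 were at 6.83 and 7.61, while the lowest of the other fast food mice were at 7.71 and 8.44. The beta subunits Psmb2, Psmb4, Psmb6 and Psmb7 were at 7.42, 8.97, 7.9 and 9.14, and the ATPase genes Psmc2 and Psmc3 at 7.73 and 7.59. Psmd11 was at 8, Psmd2 at 7.51 and the chaperone Psmd5 at 5.5, where the other fast food mice began at 8.72, 8.05 and 6.39.

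In cafeteria batch 2 replicate 3, Psma4 was at 8.19, Psmb2 at 7.44, Psmc3 at 7.58, Psmd14 at 6.24 and Psmd4 at 7.83. The lowest of the other cafeteria mice were at 8.85, 7.9, 8.08, 7.04 and 8.31 for these genes. The single high value was that of Psmd4 in chimpanzee batch 1 replicate 3, at 8.65, with the other chimpanzee mice between 8.08 and 8.28. Without the 4 arrays of lowest range, 12 genes were called lower in chimpanzee than in pellet mice.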

How the results depend on the processing

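Counts of proteasome genes called were recomputed under each alternative. Chimpanzee against pellet (17) gave 5 in batch 1 alone, 0 in batch 2 alone and 4 with batch left out. It gave 0 with the beta-actin difference as covariate and 27 probe sets when every probe set was tested. The other settings gave 12 to 21, with 5.12% to 11.9% of all genes called lower, against 7.43% as reported. That share was 2.54% with batch left out and 0.919% with the beta-actin difference. Human diets against chimpanzee (2) gave 1 and 0 in batches 1 and 2, 0 with batch left out, with the beta-actin difference and without the low-value filter, 5 with the 90th percentile as covariate, 16 with array weights, 6 with cyclic loess, 4 with quantile normalisation, 9 by the methods' procedure and 4 when fitted within all 24 mice. The share of all genes called rose with the higher counts, from 1.49% as reported to 4.59% with the 90th percentile and 9.5% with weights. It was 4.06% with loess, 3.48% with quantile normalisation, 6.43% by the methods' procedure and 3.16% within 24 mice. The share fell with the lower counts, to 0.799% and 0.00747% in batches 1 and 2 and 0.254% with batch left out. It was 0.0374% with the beta-actin difference and 0.775% without the low-value filter. Human diets against pellet (3) gave 0 in either batch, 1 with batch left out or with the beta-actin difference, 8 with the 90th percentile, 6 with weights, 11 with loess, 8 with quantile normalisation and 5 by the methods' procedure, with 4.98% of all genes called as reported and 8.14% to 10.3% in these last settings. Where the count fell, that share was 3.09% and 0.187% in batches 1 and 2. It was 2.15% with batch left out and 3.29% with the beta-actin difference. The test of all 4 diets (11) gave 2 and 0 in batches 1 and 2 and 0 with batch left out or the beta-actin difference. It gave 22 with weights, 19 with loess and 7 without the 4 arrays of lowest range. The share of all genes called was 9% as reported, 20.2% with weights, 15.8% with loess and 13.1% without those 4 arrays. It was 5.57% and 0.105% in batches 1 and 2, 2.85% with batch left out and 3.66% with the beta-actin difference. Fits within 1 batch had fewer mice; the cause of the other changes was not tested. Cafeteria against fast food gave 0 throughout.

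Leaving out single mice gave 10 to 21, 0 to 7, 1 to 5, 0 to 0 and 5 to 18 calls for chimpanzee against pellet, human diets against chimpanzee, human diets against pellet, cafeteria against fast food and all 4 diets. The test of all 4 diets fell to 5 without chimpanzee batch 2 replicate 2 or pellet batch 2 replicate 3. The shares of all genes called in these fits are not given here. Beta-actin 3' minus 5' differences ran from 0.274 to 0.371 for chimpanzee against pellet (0.245 and 0.406 in batches 1 and 2), from -0.267 to -0.175 for human diets against chimpanzee (-0.13 in batch 1), from 0.07 to 0.144 for human diets against pellet and from 0.073 to 0.144 for cafeteria against fast food.

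No pairing of the mice by replicate number was seen, though such a check cannot show that pairing is absent. The median correlation of same-numbered deviations was 0.012 over 36 pairs (from -0.635 to 0.407), against -0.024 over 72 other pairs. Of the 24 arrays, 9 were closest to their own number. With the replicate number as a block, the counts were 17, 1, 3, 0 and 8 in the order above. Over the named genes, 1563 alternative values kept direction and side of the threshold, 158 lost and 18 gained a call, and 53 uncalled values changed sign.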
